A study of Mus musculus with 16 samples.

Results

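The B cell surface and signalling genes described here are Ms4a1, Cd79a, Cd79b, Cd22, Pax5, Blk, Fcmr, Cr2 and Bank1, chosen by gene name, and all 9 were found once each among the 54532 genes of the count and FPKM tables. RNA levels were measured in 16 libraries from female mice of the inbred strain C57BL/6, and the source was the gonadal white fat depot. The tissue was digested with collagenase and parted into a mature fraction and a stromal vascular fraction, and magnetic sorting was then used to isolate adipocytes and preadipocytes. Pups of the stress groups (MS, maternal separation and early weaning) were taken from the dam daily on postnatal days 2 to 16 and weaned on day 17. Control pups (C) were left undisturbed and weaned on day 21. On the high-fat diet there were 3 MS and 3 C mature adipocyte libraries, and 4 MS and 4 C preadipocyte libraries. The low-fat diet had 1 MS and 1 C preadipocyte library. No source used here gives the age at harvest, the diets' composition, the length of feeding or the antibodies of the sort. The series' title speaks of single cells, but each library is 1 column of gene counts, so the data are bulk RNA from sorted fractions that were labelled as adipocytes or preadipocytes.

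B cells sense antigen through a membrane immunoglobulin that has almost no cytoplasmic tail of its own, and the paired chains encoded by Cd79a and Cd79b carry the signal into the cell. Src family kinases such as Blk and adaptors such as Bank1 pass it on, the complement receptor encoded by Cr2 lowers the threshold for it, and the sialic acid-binding receptor encoded by Cd22 restrains it. Pax5 encodes the transcription factor that commits lymphoid progenitors to the B lineage, Ms4a1 encodes the surface protein CD20, and Fcmr encodes the Fc receptor for IgM. B cells live in visceral fat among other immune cells, are held to increase in number in obesity, and are not part of the adipocyte lineage.

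Cd79a was called between fractions in every fit, and Cd22 and Cr2 departed furthest from the mean pattern of the 9 genes, so the DNA just before the starts of these 3 genes is shown from the RefSeq promoter table (GRCm38.p6, 5′ to 3′ on the coding strand). That table had 6 of the 9 genes; Ms4a1, Cd79b and Blk were not in it. The stretches hold no annotated exon. Cd79a lies on the plus strand, and Cd22 and Cr2 on the minus strand. The Cd22 stretch lies in an intron of a longer annotated Cd22 transcript.
Cd79a chr7:24897247-24897380: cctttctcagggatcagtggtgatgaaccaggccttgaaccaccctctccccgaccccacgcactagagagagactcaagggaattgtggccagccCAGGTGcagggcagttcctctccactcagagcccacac
Cd22 chr7:30879029-30879176: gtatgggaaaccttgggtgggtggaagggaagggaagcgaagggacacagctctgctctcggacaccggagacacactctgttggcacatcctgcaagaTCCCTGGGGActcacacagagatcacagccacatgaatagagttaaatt
Cr2 chr1:195176720-195176969: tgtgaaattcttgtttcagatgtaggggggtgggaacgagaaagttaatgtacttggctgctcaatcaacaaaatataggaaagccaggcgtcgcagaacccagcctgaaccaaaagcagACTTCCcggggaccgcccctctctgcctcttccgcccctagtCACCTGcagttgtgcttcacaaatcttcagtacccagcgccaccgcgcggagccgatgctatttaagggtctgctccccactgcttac
Capitals mark matches to motifs of B cell transcription factors, searched on both strands: EBF (TCCC and GGGA parted by any 2 bases), ETS (GGAAGT), octamer (TGCAAAT), E2A E-box (CAGGTG) and a PAX5 core (GCGTGAC). Positions are counted from the start in the RefSeq table, which for Cd79a lies inside the gene as the deposited tables place it, so its stretch ends well before that start. The Cd79a stretch held an E-box at position -154, a match present in 9.75% of 32851 promoters over the same positions. The Cd22 stretch held an EBF match at -49, present in 0.441% of promoters over its positions. The Cr2 stretch held an ETS match at -130, present in 19.7% of promoters, and an E-box at -88, present in 17.2%. A match describes letters in these windows and not a bound site.

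Library totals ran from 14182130 to 23368821 counts. The markers of the labelled fractions differed between them: in mature adipocytes against preadipocytes 10 of 10 adipocyte genes were higher and 10 of 10 progenitor genes lower (edgeR quasi-likelihood test, adjusted p under 0.05). Neither fraction was free of immune RNA. The summed level of 15 macrophage markers was 2116 to 8736 CPM in adipocyte libraries and 1659 to 9326 CPM in preadipocyte libraries, where CPM are counts divided by the TMM-adjusted size of their library. C preadipocyte libraries 1 and 3 on the high-fat diet differed at 21.45% of genes, against 49.34% to 79.9% in every other pair within a group, so they were counted as 1 sample in each mean and SD. C adipocyte libraries 1 and 3 may have sampled rare transcripts less well than the rest. The ratio of genes with 1 to 5 counts to genes with 6 to 15 was 1.15 and 0.637 there, against 1.55 to 2.23 elsewhere. The cause of the low ratios was not tested. No label ties a library to its own animal. The p-values therefore speak of the spread among these libraries alone, part of which may be technical.

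Per length, the antigen receptor chains were the most abundant of the 9 genes. Over the 10 preadipocyte libraries the median level was 11.4 FPKM (counts scaled to gene length and depth, as deposited) for Cd79a and 5.57 FPKM for Cd79b. Fcmr followed at 2.95 FPKM, Cd22 at 2.41, Blk at 1.64, Ms4a1 at 1.58, Bank1 at 1.54, Pax5 at 0.973 and Cr2 at 0.131 FPKM. The ends of this order held within single libraries: Cd79a was above Cd79b in 10 of 10 preadipocyte libraries, Cd79b above Fcmr in 9, Bank1 above Pax5 in 9 and Pax5 above Cr2 in 10. The middle of the order did not: Fcmr was above Cd22 in 7 of 10 libraries, Cd22 above Blk in 5, Blk above Ms4a1 in 4 and Ms4a1 above Bank1 in 6, so these neighbours could not be ranked beyond their spread.

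Summed over the 9 genes, the level was 14.5 to 36.1 CPM in adipocyte libraries and 20.3 to 173 CPM in preadipocyte libraries. The sum was highest in C preadipocyte libraries 4, 1 and 3 on the high-fat diet (173, 143 and 133 CPM) and lowest among preadipocytes in MS library 2 (20.3 CPM). Counts per gene and library ran from 0 to 898. Cr2 had 0 counts in MS preadipocyte library 2, MS adipocyte library 2 and C adipocyte library 2, and Ms4a1, Blk and Fcmr had 0 in C adipocyte library 3. A count of 0 allows a level of up to 0.139 to 0.212 CPM in these libraries (3 counts, counting error only).

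**Figure D1:**
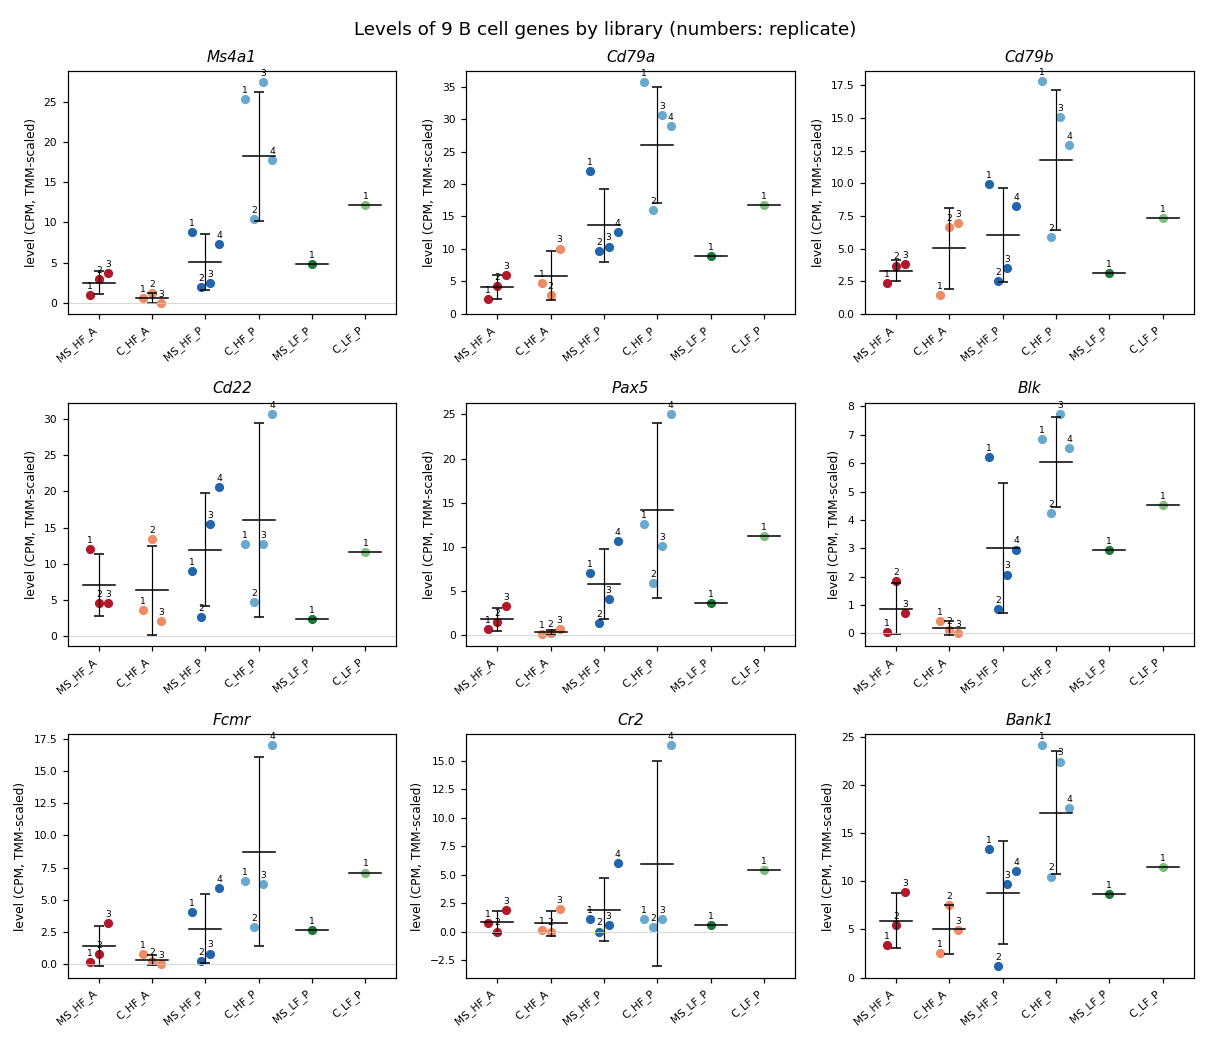
Level of each of the 9 genes (vertical axes, TMM-scaled CPM) in every library, by group; points are libraries numbered by replicate, and lines and bars are the mean and SD, with C_HF_P libraries 1 and 3 counted as 1 sample. In high-fat preadipocytes MS library 2 is the lowest of 8 for every gene, while Cr2 reaches 16.3 CPM in C library 4 and 5.99 CPM in MS library 4 and at most 1.12 CPM in the other 6.

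The first comparison asked how the genes differed between mature adipocytes and preadipocytes on the high-fat diet (6 against 8 libraries, adjusted for early life treatment). All 9 genes were lower in the mature fraction in the fit, with a median log2 fold change of -1.96, where 55.4% of the 16938 genes tested were negative. Of the 9, 7 passed the test as lower (adjusted p under 0.05) and none as higher. Over all genes tested, 34.6% were called lower, 63.5% were called in either direction, and the median log2 fold change was -0.19. All 9 genes passed the filter on low counts. Blk, Pax5, Fcmr and Cr2 reached the number of libraries it requires only with preadipocyte libraries included. The calls of Blk, Pax5 and Fcmr are therefore part of these counts but no support for them. In these bulk samples fewer B cells and less RNA per B cell cannot be told apart.

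The antigen receptor chains were lower in mature adipocytes. Cd79a had 2.22 CPM at the lowest, 4.48 at the median and 10.1 at the highest in adipocyte libraries, against 9.60, 19.0 and 35.8 CPM in high-fat preadipocyte libraries. Only C adipocyte library 3, at 10.1 CPM, reached into the preadipocyte range, where MS library 2 had 9.60 CPM. Cd79a was 3.90-fold lower (log2 fold change -1.96 ± 0.33 SE, adjusted p = 0.000109, edgeR), and it was called lower in 25 of 25 alternative fits. Cd79b had 1.45, 3.76 and 6.96 CPM in adipocytes (lowest, median, highest), against 2.50, 9.10 and 17.8 CPM in preadipocytes. The ranges overlapped over most of the adipocyte values, and Cd79b was 2.16-fold lower (-1.11 ± 0.40, adjusted p = 0.0252).

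Among the 9 genes the transcription factor Pax5 and the kinase Blk had the largest fitted fold changes. Pax5 had 0.167, 0.672 and 3.27 CPM in adipocytes, against 1.37, 8.57 and 25.1 CPM in preadipocytes (lowest, median, highest). It was 8.89-fold lower (log2 fold change -3.15 ± 0.76, adjusted p = 0.00205, edgeR). Pax5 rested on 3 to 65 counts in adipocyte libraries and passed the filter only with preadipocyte libraries included, so this value is a description. Blk had 0, 0.278 and 1.85 CPM in adipocytes, against 0.847, 5.23 and 7.75 CPM in preadipocytes, with a fitted log2 fold change of -3.12 ± 0.82 (adjusted p = 0.00382). Blk rested on 0 to 29 counts in adipocyte libraries and was below the filter there, so this value is a description. The overlap between fractions came from MS libraries in both genes: adipocyte libraries 2 and 3 for Pax5 and adipocyte library 2 for Blk lay above MS preadipocyte library 2.

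Ms4a1 had 0, 1.07 and 3.73 CPM in adipocytes, against 1.93, 9.63 and 27.5 CPM in preadipocytes (lowest, median, highest), and was 6.52-fold lower (log2 fold change -2.70 ± 0.82, adjusted p = 0.00958, edgeR). Adipocyte values above the lowest preadipocyte value came from MS libraries 2 and 3. The IgM receptor gene Fcmr had 0, 0.529 and 3.17 CPM in adipocytes, against 0.235, 4.98 and 17.0 CPM in preadipocytes, and was 5.50-fold lower (-2.46 ± 0.98, adjusted p = 0.0377). Fcmr rested on 0 to 63 counts in adipocyte libraries and passed the filter only with preadipocyte libraries included, so its value is a description. The adaptor Bank1 had 2.51, 5.19 and 8.92 CPM in adipocytes, against 1.18, 12.2 and 24.1 CPM in preadipocytes, and was 2.32-fold lower (-1.21 ± 0.47, adjusted p = 0.0337). For Bank1 the lowest of the 14 libraries was a preadipocyte library, MS 2.

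The coreceptors that tune the signal did not pass the test. Cd22 had 2.06, 4.59 and 13.4 CPM in adipocytes, against 2.64, 12.7 and 30.7 CPM in preadipocytes (log2 fold change -1.0 ± 0.52, adjusted p = 0.106, edgeR). Cr2 had 0, 0.437 and 1.98 CPM in adipocytes, against 0, 1.07 and 16.3 CPM in preadipocytes (-1.91 ± 1.21, adjusted p = 0.182). In none of the 9 genes were the fractions' ranges apart, whereas 19.3% of the genes tested were lower without overlap. Of the 9, 4 were called lower without MS preadipocyte library 1, where 5341 of 16639 genes tested were. Without MS adipocyte library 1 the number was also 4, where 5735 of 17404 genes were. Without C adipocyte libraries 1 and 3 together it was 3, where 5772 of 17942 genes were. In C libraries alone it was 6, where 4067 of 16957 genes were. In MS libraries alone it was 1, Cd79a, where 4135 of 16489 genes were. The median log2 fold change of the 9 was -0.99 in MS libraries alone and -2.80 in C libraries alone. For Ms4a1 it was -0.99 ± 0.70 in MS and -4.96 ± 0.82 in C, and for Pax5 -1.69 ± 0.78 in MS and -5.29 ± 0.72 in C. The C values rest on 11, 22 and 0 counts of Ms4a1 and 3, 4 and 8 of Pax5 in adipocyte libraries 1 to 3. Of these, C adipocyte libraries 1 and 3 may have sampled rare transcripts less well.

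**Figure D2:**
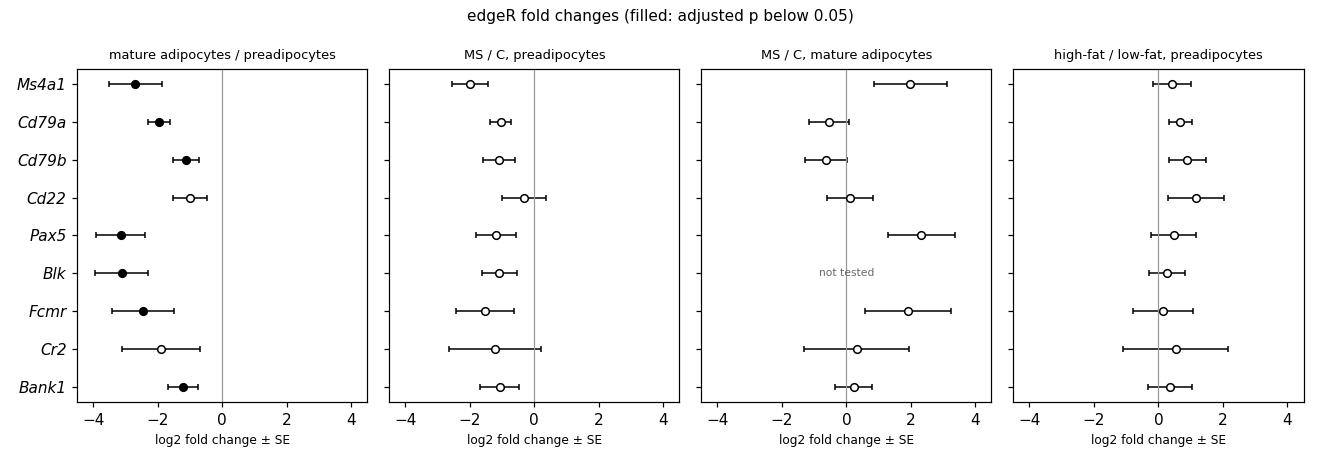
Log2 fold changes (horizontal axes, points with SE bars) of the 9 genes in 4 comparisons fitted with edgeR; filled points have an adjusted p under 0.05. Filled points occur in the fraction comparison alone, and all points of MS against C in preadipocytes lie left of 0, where 0% of genes were called.

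Other genes of the same pathway were set beside them from lists chosen with earlier results known. Of 22 genes that act in B cell receptor signalling and are not among the 9, 7 were lower and none higher in mature adipocytes. That is near the share over all genes tested, of which 34.6% were called lower. The median log2 fold change of the 22 was -0.37. The 3 with the smallest adjusted p were Nfatc1, a calcium-regulated transcription factor (-1.52 ± 0.22), Bcl10, an adaptor of NF-κB signalling (-0.81 ± 0.12), and Dapp1, a phosphoinositide-binding adaptor (-1.43 ± 0.30, adjusted p = 0.000697, edgeR). Of 21 tested genes of B cell identity, a list that overlaps with the signalling list, 13 were lower and 1 higher, with a median of -1.75. Among them Cd55, a complement regulator that stromal cells also express, changed by -2.83 ± 0.36, and Ikzf3, a lymphoid transcription factor, by -3.67 ± 0.53. Cd55 is also among the progenitor genes counted above, so it enters both lists.

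Markers of other lymphocytes moved in the same direction in this comparison. Of 14 T cell markers 11 were lower in mature adipocytes (median log2 fold change -2.29), and the markers' summed level was 7.91 to 14.5 CPM in adipocytes and 13.8 to 84.6 CPM in preadipocytes. Of 8 tested NK cell markers all 8 were lower (median -3.94), with sums of 1.11 to 4.33 CPM in adipocytes and 8.67 to 111 CPM in preadipocytes. Over all genes tested 34.6% were called lower. C adipocyte library 3 had 9 of the 14 T cell markers at 0 counts. C adipocyte libraries 1 and 3 each had 5 NK markers at 0. Markers this low may have passed the filter through the preadipocytes alone, so these counts are a description and no support for the 9 genes. Among T cell markers Cd3e was at 0 in C adipocyte libraries 1 and 2 and MS adipocyte library 2, and among NK markers Ncr1 was at 0 in C adipocyte libraries 1, 2 and 3 and MS library 1. Of 15 macrophage markers 1 was lower and none higher (median -0.08), and of 9 dendritic cell markers 5 were lower (median -0.88). Their part in the fold changes of the 9 genes was not tested.

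The second comparison asked whether early life stress changed the genes in high-fat preadipocytes (4 MS against 4 C libraries). None of the 9 passed the test, and neither did any of the 16810 genes tested (0% called). At an unadjusted p under 0.05 edgeR gave 1010 genes (6.01%), among them Ms4a1 and Cd79a, and DESeq2 called 27 genes, none of the 9. Single libraries moved that count: it was 494, 511 and 581 without C library 1, C library 3 or MS library 3, and 1701, 1645 and 1625 without MS library 1, MS library 2 or C library 4. Of the 9 genes, 2 to 4 were then at an unadjusted p under 0.05. The fitted log2 fold change was negative for all 9, with a median of -1.10, where 49% of genes tested were negative.

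Ms4a1 had 8.84, 1.93, 2.42 and 7.25 CPM in MS libraries 1 to 4, against 25.4, 10.4, 27.5 and 17.7 CPM in C libraries 1 to 4. Every MS value lay below every C value, which 1.39% of genes tested showed in this direction and which no other gene of the 9 did. The log2 fold change was -1.99 ± 0.55 (unadjusted p = 0.0056, adjusted p = 0.80, edgeR), and it ranged from -2.36 to -1.71 when 1 library was left out. This fit and the comparison of ranges count the near-identical C libraries 1 and 3 separately. With that pair summed into 1 library, Ms4a1 had -1.80 ± 0.59 (adjusted p = 0.97, edgeR). Its group averages were 5.11 ± 3.46 CPM in MS (SD, n = 4) and 18.2 ± 8.01 CPM in C (SD, n = 3).

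Cd79a had 21.9, 9.60, 10.4 and 12.6 CPM in MS libraries 1 to 4, against 35.8, 16.0, 30.7 and 28.9 CPM in C libraries 1 to 4. MS library 1 lay above C library 2, so the groups overlapped. The log2 fold change was -1.05 ± 0.33 (unadjusted p = 0.0115, adjusted p = 0.80, edgeR). With C libraries 1 and 3 summed into 1 library, it was -0.92 ± 0.36 (adjusted p = 0.97, edgeR). Cd79b had 9.96, 2.50, 3.50 and 8.25 CPM in MS, against 17.8, 5.89, 15.04 and 13.0 CPM in C (-1.10 ± 0.50, adjusted p = 0.80).

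Pax5 had 7.07, 1.37, 4.14 and 10.7 CPM in MS libraries 1 to 4, against 12.6, 5.94, 10.1 and 25.1 CPM in C (log2 fold change -1.18 ± 0.63). Blk had 6.21, 0.847, 2.07 and 2.95 CPM in MS, against 6.85, 4.26, 7.75 and 6.55 CPM in C (-1.08 ± 0.53). Bank1 had 13.4, 1.18, 9.67 and 11.03 CPM in MS, against 24.1, 10.5, 22.4 and 17.6 CPM in C (-1.08 ± 0.61). In these 3 genes, as in Cd79a and Cd79b, at least 1 MS library lay above C library 2, the lowest C library.

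Fcmr had 4.05, 0.235, 0.838 and 5.90 CPM in MS libraries 1 to 4, against 6.45, 2.90, 6.24 and 17.0 CPM in C (log2 fold change -1.53 ± 0.89). Cd22 had 9.05, 2.64, 15.5 and 20.6 CPM in MS, against 12.7, 4.72, 12.7 and 30.7 CPM in C (-0.32 ± 0.68). Cr2 had 1.12, 0, 0.592 and 5.99 CPM in MS, against 1.08, 0.421, 1.06 and 16.3 CPM in C (-1.22 ± 1.43). The signs for Cd22 and Cr2 rested on single libraries: without C library 4 the log2 fold change was 0.25 for Cd22 and 1.196 for Cr2, and without MS library 2 it was 0.024 for Cd22.

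MS preadipocyte library 2 was the lowest of the 8 for all 9 genes. It was also low in other lymphocyte RNA, with T cell markers summing to 13.8 CPM, against 19.5 to 79.8 CPM in the other MS libraries and 37.5 to 84.6 CPM in C libraries. The macrophage markers summed to 1659 CPM there, near the 1788 CPM of C library 2 and below the 3483 to 9326 CPM of the other 6. For the pathway, 8 of the 22 further receptor signalling genes had negative log2 fold changes (median 0.10) and 17 of the 21 identity genes did (median -1.18), with none called in either list. All 14 T cell markers had negative log2 fold changes (median -0.85), as did all 8 endothelial markers (median -1.41), 6 of 9 dendritic cell markers (median -1.11) and 6 of 9 NK cell markers (median -0.24). Of 15 macrophage markers 14 had positive ones (median 0.58), and no gene of these lists was called. The part of these cells in the values of the 9 genes was not tested.

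In mature adipocytes on the high-fat diet (3 MS against 3 C libraries) 8 of the 9 genes passed the filter on low counts and none passed the test, as none of the 14485 genes tested did (0% called). At an unadjusted p under 0.05 edgeR gave 417 genes (2.88%), Pax5 among them, and DESeq2 called 9 genes, none of the 9 described. That count was 1481 without C library 2 and 641 without MS library 1, and 260 without C library 3 and 222 without MS library 3. Pax5 had 0.657, 1.47 and 3.27 CPM in MS libraries 1 to 3, against 0.167, 0.222 and 0.688 CPM in C libraries 1 to 3 (log2 fold change 2.32 ± 1.04, unadjusted p = 0.0481, adjusted p = 0.9996, edgeR). The groups overlapped at MS library 1 and C library 3, which had 13 and 8 counts.

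Ms4a1 had 0.910, 2.93 and 3.73 CPM in MS adipocyte libraries 1 to 3, against 0.613, 1.22 and 0 CPM in C libraries 1 to 3 (log2 fold change 1.98 ± 1.13). Fcmr had 0.202, 0.829 and 3.17 CPM in MS, against 0.780, 0.277 and 0 CPM in C (1.90 ± 1.33). Cd79a had 2.22, 4.27 and 5.99 CPM in MS, against 4.68, 2.94 and 10.1 CPM in C (-0.52 ± 0.62), with the highest value in C library 3. The log2 fold changes of Cd79b, Cd22, Cr2 and Bank1 lay between -0.63 and 0.31. In all, 6 of the 8 were positive, where 49.2% of genes tested were. In none of the 8 were the groups apart, whereas 2.93% of genes tested were lower and 4.13% higher without overlap. Blk, which was below the filter, had 0.0505, 1.85 and 0.705 CPM in MS, against 0.446, 0.111 and 0 CPM in C.

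Whether the MS against C difference itself differed between fractions was tested with an interaction term over the 14 high-fat libraries. No gene of the 9 was called, nor was any of 18194 genes tested (0% called). At an unadjusted p under 0.05 there were 1223 genes (6.72%), 4 of them among the 9, and 2903 genes without C adipocyte library 2, 2 of them among the 9. The interaction was positive for all 9 genes, that is, the difference of MS from C was further up in mature adipocytes than in preadipocytes, where 50.5% of genes tested were positive. The largest was that of Ms4a1 (3.94 ± 1.07 on the log2 scale, unadjusted p = 0.00233, adjusted p = 0.717, edgeR), followed by Pax5 (3.59 ± 1.08), Fcmr (3.45 ± 1.57) and Blk (3.14 ± 1.33). DESeq2 called 25 genes for the interaction, Ms4a1 among them. The adipocyte side of these 4 values rests on 0 to 74 counts per library, and C adipocyte libraries 1 and 3 may have sampled rare transcripts less well.

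In low-fat preadipocytes there was 1 MS and 1 C library, so the values carry counting error only and no test. All 9 genes were lower in the MS library, with a median ratio of 0.391, against 0.947 over the 16605 genes whose counts summed to 20 or more. Of the 9, 6 were at least 2-fold lower, as were 4.66% of those genes. Cr2 had 0.596 CPM in the MS library (13 counts), against 5.43 CPM in the C library (131 counts), a ratio of 0.110 (95% exact interval 0.0569 to 0.194). Cd22 had 2.34 CPM, against 11.7 CPM in C, a ratio of 0.200 (0.146 to 0.270). Pax5 had 3.62 CPM, against 11.3 CPM in C (ratio 0.321), Fcmr 2.66 against 7.12 (0.373), Ms4a1 4.76 against 12.2 (0.391) and Cd79b 3.12 against 7.33 (0.425).

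The receptor chain Cd79a stood at 8.84 CPM in the low-fat MS library, against 16.8 CPM in the low-fat C library, a ratio of 0.526 (0.441 to 0.626). Blk and Bank1 had the ratios nearest to 1, 0.650 (0.469 to 0.892) and 0.752 (0.622 to 0.908). The ratios of the 9 genes thus spread from 0.110 to 0.752, and the intervals of Cr2 and Bank1 lay apart by counting error. T cell markers summed to 28.0 CPM in the MS library and 52.0 CPM in the C library, and macrophage markers to 2122 CPM in the MS library and 1769 CPM in the C library. Their part in the ratios was not tested.

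**Figure D3:**
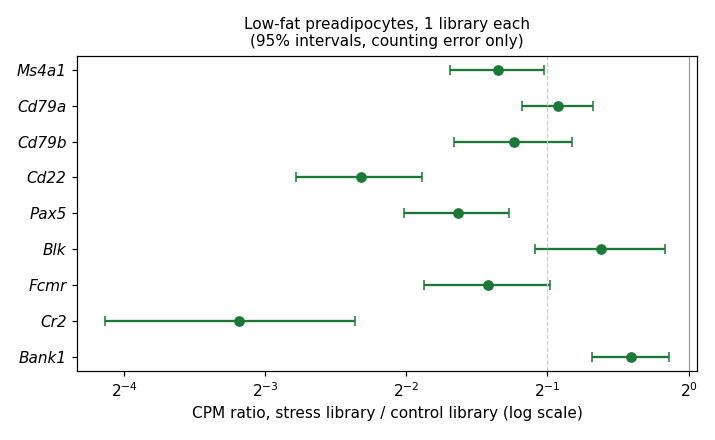
Ratio of the CPM in the low-fat MS library to that in the low-fat C library (horizontal axis, log scale) for the 9 genes, with 95% exact intervals that cover counting error only. All 9 points lie left of a ratio of 1, with Cr2 at 0.110 the furthest and Bank1 at 0.752 the nearest.

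High-fat was set against low-fat diet in preadipocytes (8 against 2 libraries, adjusted for early life treatment). None of the 9 genes passed the test, and none of 18713 genes tested did (0% called). At an unadjusted p under 0.05 there were 2983 genes (15.9%), none of them among the 9, and 885 without the low-fat MS library. DESeq2 called 782 genes, none of the 9. All 9 log2 fold changes were positive in the fit, where 51.5% of genes tested were, with a median of 0.47 for the 9. Cd22 had the largest, 1.17 ± 0.87 (adjusted p = 0.528, edgeR), and Cd79a the smallest unadjusted p (0.68 ± 0.36, unadjusted p = 0.0894).

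The low-fat values lay mostly inside the high-fat range. In 7 of the 9 genes both low-fat libraries were within the range of the 8 high-fat libraries. For Cd79a the low-fat MS library, at 8.84 CPM, was below the lowest high-fat library at 9.60 CPM, and for Cd22 it was at 2.34 CPM, below 2.64 CPM. The signs for Cr2, Fcmr and Pax5 turned without MS and C preadipocyte libraries 4 together, which were singled out for their high Cr2 after seeing the data, so that a lower Cr2 value is built into the choice (-1.66, -0.54 and -0.020). Of the 22 further receptor signalling genes 21 had positive log2 fold changes (median 1.197), as did 14 of the 15 macrophage markers (median 1.51), with none called in either list.

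The 9 genes did not keep fixed proportions to each other across libraries. With the count of each gene divided by that of Cd79a in the same library, so that library size cancels, Cd79b was the steadiest in preadipocytes, at 26.0 to 65.7 counts per 100 Cd79a counts (median 44.2). Blk had 8.82 to 33.2 (median 24.4) and Ms4a1 20.1 to 89.6 (median 59.6). Cr2 varied most, with 0 to 56.5 counts per 100 of Cd79a (median 5.41). These ratios are of counts and not per length, so they compare libraries and not genes.

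Cr2 was set apart in 3 preadipocyte libraries, singled out after their values were seen. It had 47.8 counts per 100 Cd79a counts in high-fat MS library 4 (95% exact interval 38.7 to 58.7), 56.5 in high-fat C library 4 (49.6 to 64.3) and 32.3 in the low-fat C library (26.3 to 39.4). The other 7 preadipocyte libraries had 0 to 6.74, with upper bounds of at most 11.8. The 3 libraries fall in 3 different groups and share neither diet nor early life treatment. In mature adipocytes Cr2 stood at 31.8 and 31.9 per 100 in MS libraries 1 and 3 and at 19.7 in C library 3, on 14, 38 and 23 counts.

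Some other B cell genes were high beside Cr2 in the same 3 preadipocyte libraries. Most of the B cell identity list was not set against Cd79a. From that list, Cxcr5 was lower against Cd79a in the low-fat C library than in the low-fat MS library. It had 106 counts beside 406 of Cd79a in C, and 82 beside 193 in MS. Fcmr had 47.1 counts per 100 Cd79a counts in MS library 4, 58.8 in C library 4 and 42.4 in the low-fat C library, against 2.45 to 30.1 in the other 7. Pax5 had 85.1, 86.8 and 67, against 14.2 to 40.9. Fcer2a, which encodes the low-affinity IgE receptor CD23 of follicular B cells and is not among the 9, had 33.9, 51.8 and 24.4, against 0.490 to 9.85. Ighd, the constant gene of IgD, had 104, 112 and 65.5, against 17.2 to 39.4. Ms4a1, Blk and Bank1 did not stand apart there: Ms4a1 had 57.8, 61.4 and 72.4 per 100 in these libraries, inside the 20.1 to 89.6 of the other 7.

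**Figure D4:**
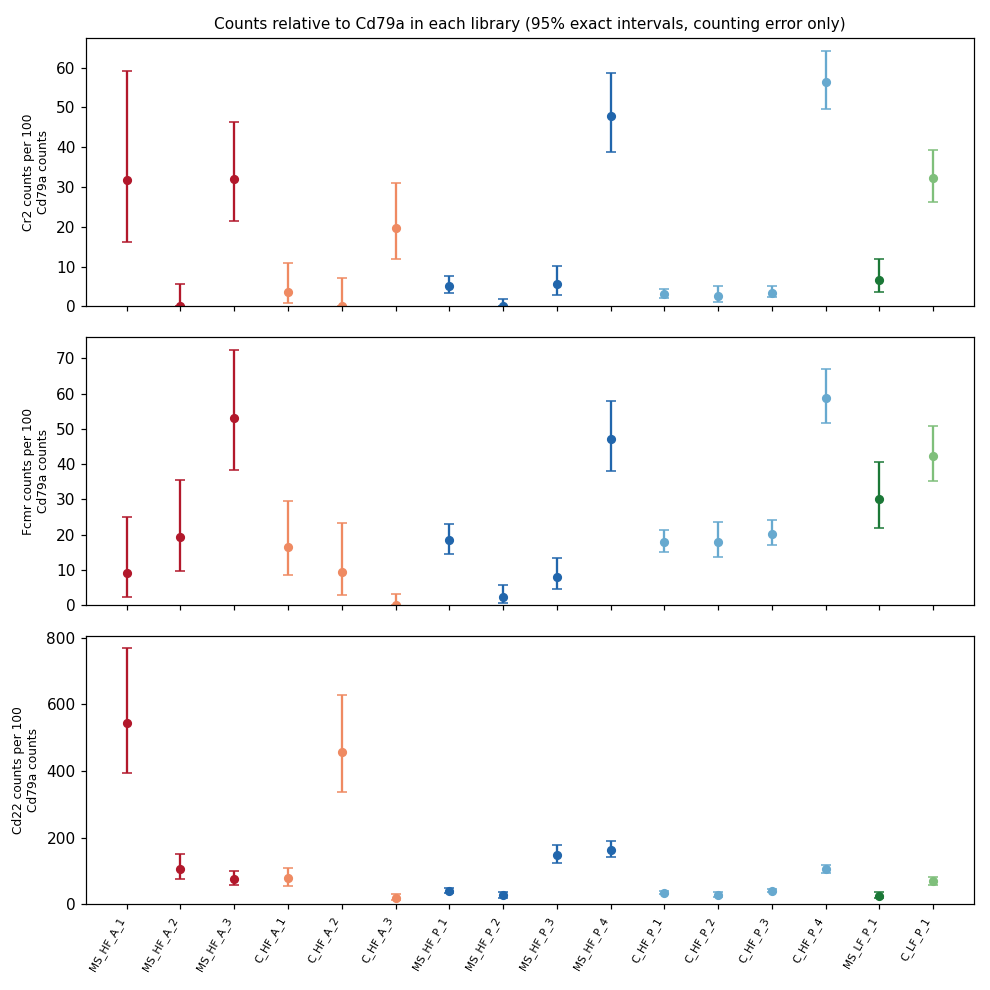
Counts of Cr2, Fcmr and Cd22 per 100 Cd79a counts (vertical axes) in each of the 16 libraries, with 95% exact intervals that cover counting error only. Cr2 and Fcmr are high together in MS_HF_P library 4, C_HF_P library 4 and C_LF_P library 1, and Cd22 is highest in MS_HF_A library 1 and C_HF_A library 2.

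Cd22 was high against Cd79a in these 3 preadipocyte libraries and in MS preadipocyte library 3. Per 100 Cd79a counts it had 149.5 and 164.0 in high-fat MS preadipocyte libraries 3 and 4, 106 in C library 4 and 69.5 in the low-fat C library, against 26.4 to 41.5 in the other 6 preadipocyte libraries. In mature adipocytes it had 543 in MS library 1 and 457 in C library 2, against 20.5 to 107.5 in the other 4. Macrophage markers summed to 8180 and 9326 CPM in MS preadipocyte libraries 3 and 4, 5513 CPM in MS adipocyte library 1 and 8736 CPM in C adipocyte library 2, which are the 4 highest sums of the 16 libraries. C preadipocyte library 4 was not among these, with 4021 CPM, nor was the low-fat C library, with 1769 CPM. The part of macrophages in the Cd22 level was not tested.

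Bank1 and Cd79b were also high against Cd79a in C adipocyte library 2, with 257 and 226 counts per 100, against 48.7 to 150.0 for Bank1 and 31.0 to 107 for Cd79b in the other 5 adipocyte libraries. Ms4a1, with 41.5 per 100, and Pax5, with 7.55, were not. The library had 53 Cd79a counts.

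**Figure D5:**
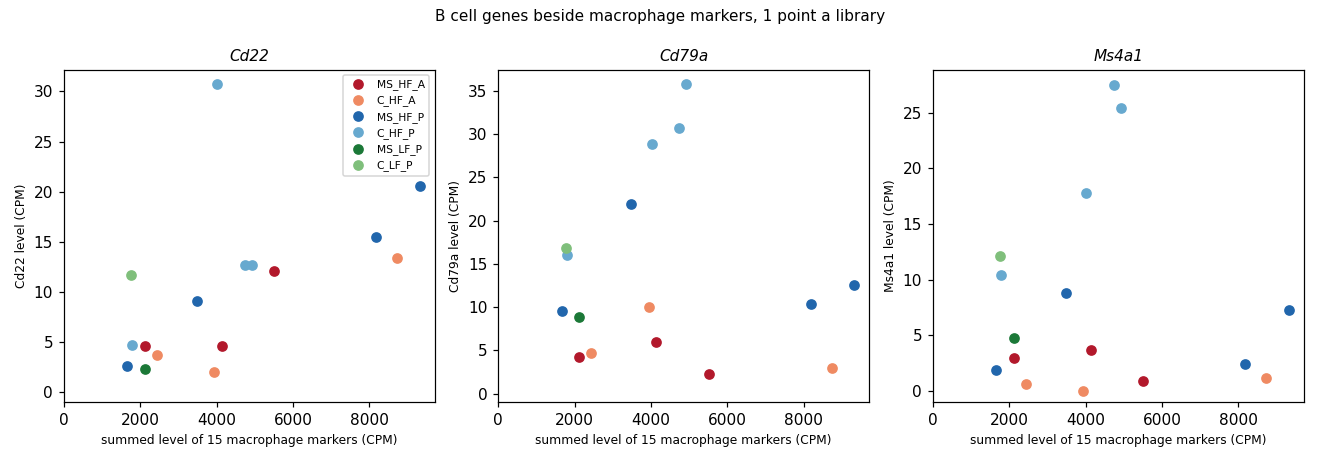
Level of Cd22, Cd79a and Ms4a1 (vertical axes, CPM) against the summed level of 15 macrophage markers (horizontal axis, CPM), with 1 point a library coloured by group. The 4 libraries with the highest macrophage sums, 5513 to 9326 CPM, have 12.1 to 20.6 CPM of Cd22 and at most 7.25 CPM of Ms4a1.

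Across the 10 preadipocyte libraries, the genes whose pattern was most like the mean of the 9 were sought by the mean absolute difference in centred log2 CPM over 14718 genes with a mean of at least 1 CPM, where the median gene differed by 0.90. Among the 10 nearest genes outside the 9 were H2-Ob (0.238), Pou2af1 (0.244), H2-DMb2 (0.248), H2-Eb2 (0.261), Btla (0.270), Slamf6 (0.273), Bcl11a (0.291), H2-Oa (0.320) and Ighd (0.334). H2-Oa and H2-Ob encode the chains of a class II antigen-loading modulator, H2-DMb2 a chain of the loading catalyst, and Pou2af1 a B cell transcriptional coactivator. Each of the 9 genes is part of their mean, which by itself draws it nearer. Of the 9 genes Pax5 was nearest to their mean, at 0.135. With the 9 in the ranking, Cd79b ranked 17 and Blk 19, with the T cell gene Cd8a at 18 between them. Fcmr ranked 35, Cd79a 39, Bank1 46 and Ms4a1 52. Cd22 (0.600) and Cr2 (1.06) were the furthest, and Cr2 was further from the mean than the median gene.

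Reads of overlapping genes could enter 4 of the 9 counts, since no source used here says whether the counting used strand. On GRCm38, as in the deposited tables, Ms4a1 (chromosome 19, 11249675 to 11266241, minus strand) overlaps 4930526L06Rik, whose counts came to 2.09% of its own. Pax5 (chromosome 4, 44524757 to 44710487, minus strand) overlaps 4 genes with 1.69%, Bank1 (chromosome 3, 136053363 to 136326066, minus strand) overlaps Gm31243 with 0.529%, and Cd22 (chromosome 7, 30865402 to 30880342, minus strand) overlaps Gm29439, which had 0 counts. Cd79a (chromosome 7, 24897381 to 24902197), Cd79b (chromosome 11, 106311341 to 106314762), Blk (chromosome 14, 63372836 to 63417037), Fcmr (chromosome 1, 130865669 to 130880791) and Cr2 (chromosome 1, 195136811 to 195176716) overlap no other gene there.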

How the data were processed

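Total RNA from 16 fat cell libraries was sequenced on an Illumina NovaSeq instrument with paired ends, per the labels. For 54532 genes the authors deposited 1 table of raw counts and 1 of FPKM. In each library the deposited FPKM were the counts over gene length and depth, multiplied by 1 factor (0.860 to 1.26 over libraries). STAR 2.6.1d, DESeq2 1.20.0, edgeR 3.24.3 and the builds mm10 and GRCm38 are named in the submitters' processing notes. No source used here names the counting program, its use of strand or the gene annotation.

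Groups follow the sample titles. Counts were tested with edgeR 4.0.16 in R 4.3.3 (robust quasi-likelihood F test with TMM factors and the filterByExpr filter) over all genes that passed the filter, with Benjamini-Hochberg adjustment and a threshold of 0.05. The ± after a log2 fold change is its SE. CPM use TMM factors over all 16 libraries, and log2 CPM a prior count of 2. The scripts were tested on simulated counts. Alternatives were DESeq2-type size factors, no filter, DESeq2 1.42.0, limma 3.58.1 on log2(FPKM + 1) and log2(FPKM + 0.1), leaving out libraries, a replicate block and summing C preadipocyte libraries 1 and 3. Chi-square tests of counts compared the libraries of each group: that pair had a chi-square per gene of 4.03, above counting noise, against 30.9 to 281 in other pairs, and the model fits keep both. Intervals are exact Poisson or binomial at 95%, and cover counting error only.

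The 9 genes and the gene lists were chosen with earlier results of these data known. Genes named beside the 9 are the 4 of a list with the smallest adjusted p, and the 10 nearest in pattern; 1 gene that this rule names is not reported here. The labels give no batch or date. The 2 low-fat libraries share 1 replicate number with the high-fat ones, and each is the only library of its group.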

Additional observations from a re-analysis of the deposited data

How the results depend on the processing

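Between mature adipocytes and preadipocytes 7 of the 9 genes were called, all lower, where 34.6% of the 16938 genes tested were called lower. All 9 log2 fold changes stayed negative in the 25 alternatives run. The number called was 4 to 8 when 1 library was left out. In those fits 5341 to 6234 genes were called lower, of 16639 to 17478 tested. The number was 3 without C adipocyte libraries 1 and 3 together, and 1 in MS libraries alone. Without those C libraries 5772 of 17942 genes tested were called lower, and in MS libraries alone 4135 of 16489. Over the alternatives Cd79a was called in 25, Pax5 and Blk in 24 each, Ms4a1 in 22, Cd79b in 19, Bank1 in 15, Fcmr in 13, Cd22 in 3 and Cr2 in 0. Blk, Pax5 and Fcmr passed the filter of the main fit only with preadipocyte libraries included. In no alternative was any of the 9 called for diet or for MS against C in either fraction.

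Same-numbered libraries did not deviate together in every pair (correlations of -0.188 to 0.138 between fractions, -0.067 to 0.333 between MS and C preadipocytes and -0.247 to 0.03 between MS and C adipocytes), so the numbers were not taken as pairs. Between MS and C preadipocytes 3 of the 4 pairs were above 0.1. There the own pair was above the best pair with another number for number 2 (0.333 against -0.096) and number 4 (0.176 against 0.047). It was not for number 1 (0.16 against 0.18) and number 3 (-0.067 against 0.21). With the replicate block 3 of the 9 genes were called between fractions, all lower, where 6350 of 20809 genes tested were called lower. For MS against C in preadipocytes 2 genes of all tested were called, none of the 9. Of the 9, 7 were then at an unadjusted p under 0.05 there, against 2 without the block. Over all genes tested 1460 of 18342 were at that threshold with the block, against 1010 of 16810 without it.

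Over all genes tested, diet gave 0 calls, against 782 with DESeq2, 1 with no filter, 15 with limma at each pseudocount, 17 without MS and C preadipocyte libraries 4 and 0 to 57 without 1 library. MS against C in preadipocytes gave 0, against 27 with DESeq2. In adipocytes it gave 0, against 51 with no filter, 9 with DESeq2 and 0 to 9 without 1 library. The interaction gave 0, against 25 with DESeq2, 1 of them among the 9, and 0 to 3 without 1 library. The causes were not tested.

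Signs that turned belonged to values that no test called. For diet, limma on FPKM gave Fcmr -0.12 and -0.38 and Cr2 -0.031 and -0.30 with pseudocounts of 1 and 0.1, and leaving out both libraries 4 gave Pax5 -0.020, Fcmr -0.54 and Cr2 -1.66. Without C adipocyte libraries 1 and 3, MS against C in adipocytes was 0.50 for Cd79a, -0.93 for Cd22 and -0.35 for Bank1, and the interaction was -0.57 for Cd22. Leaving out 1 library moved the log2 fold change for diet between -0.027 and 0.57 for Blk, -0.23 and 0.33 for Fcmr and -1.21 and 1.71 for Cr2. For MS against C in preadipocytes it ran from -0.73 to 0.25 for Cd22 and -3.005 to 1.196 for Cr2. In adipocytes it ran from -0.88 to 0.11 for Cd79a, -0.50 to 1.25 for Cd22, -0.97 to 3.27 for Cr2 and -0.19 to 0.64 for Bank1. The interaction ran from -0.14 to 1.62 for Cd22 and -0.83 to 4.59 for Cr2. Depth limits Cr2, Fcmr and Blk most, which had 0 to 63 counts in adipocyte libraries.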

Other observations

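Immunoglobulin genes did not all follow the 9 genes between fractions. Ighm, the constant gene of IgM, was higher in mature adipocytes, with 443 to 904 CPM in MS and 592 to 1386 CPM in C adipocytes, against 97.5 to 380 CPM in MS and 220 to 501 CPM in C high-fat preadipocytes (log2 fold change 1.58 ± 0.30, adjusted p = 0.000296, edgeR). Igkc, the kappa light chain gene, was lower (-2.62 ± 0.43, adjusted p = 7.22e-05). Of 10 plasma cell genes, mature adipocytes had 2 higher and 4 lower, where 63.5% of all genes tested were called in either direction. The 8 genes of B1 and marginal zone B cells split into 1 higher, 5 lower and 2 not called. The higher one of these was Cd1d1, a lipid antigen-presenting molecule that adipocytes also express, with a log2 fold change of 4.86 ± 0.34. Of 4 tested genes of lymphoid follicle stroma 2 were higher and 1 lower, and of 8 endothelial markers 7 were higher and 1 lower.

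Of the lymphoid follicle stroma list, 5 genes were found once in the tables, and their levels are given for the 3 preadipocyte libraries where Cr2 was high against Cd79a. Cxcl13, the B cell-attracting chemokine, had 9.12 CPM in high-fat MS preadipocyte library 4, 12.3 CPM in C library 4 and 20.8 CPM in the low-fat C library, inside the 8.23 to 33.0 CPM of the other 7 preadipocyte libraries. Ltb, which encodes lymphotoxin beta and is also made by lymphocytes, had 2.87, 6.94 and 4.72 CPM in those 3 libraries, against 0.659 to 5.57 CPM in the other 7, and ranked 12 in likeness to the mean of the 9 genes, with those genes in the ranking. Its receptor gene Ltbr had 73.6, 73.8 and 62.0 CPM, against 59.8 to 79.7 CPM. Lta had 6, 12 and 15 counts, against 1 to 8, and Madcam1 had 1, 2 and 2 counts, against 0 to 12. No test was made of these levels.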
